A study of Mus musculus with 30 samples.

Results

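The mouse mitochondrial genome carries 37 genes, and all 37 were found among the 46078 genes listed for these colon libraries by 2 criteria, a gene name that begins with mt- and a place on the sequence MT. They comprise 13 protein genes, 2 rRNA genes and 22 tRNA genes. RNA from the colon of C57BL/6J mice was sequenced as ribosomal RNA-depleted total RNA in 30 libraries, 6 in each of 5 groups. Mice were 5 to 6 weeks old at the start and received their diet for 13 weeks. The CD F and CD M groups were females and males on a control diet (CD, 10% of energy from fat) given vehicle. The HFD F and HFD M groups were females and males on a high-fat diet (HFD, 60% of energy from fat) given vehicle. The HFD+E2 M group was males on HFD given the estrogen 17β-estradiol (E2) at 0.5 mg/kg. All groups had 9 intraperitoneal injections in the last 3 weeks, and E2 was given only to males on HFD among the libraries analysed here. The material was colon tissue (distal colon by the study's methods) with no cell type isolated, so that fewer cells of a type and less RNA per cell cannot be told apart. Epithelial markers (9 genes, Lgals4 the most abundant) summed to between 5045 and 7453 CPM (counts scaled to the same library total) and smooth muscle markers (8 genes, Myh11 the most abundant) to between 6190 and 15459 CPM over the 30 libraries.

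Mitochondrial DNA is a small circular genome, copied into long RNAs from both strands by a dedicated polymerase, Polrmt, with the help of Tfam and Tfb2m. The long RNAs are cut at the tRNAs that punctuate them, which frees the rRNAs and mRNAs, and mRNA stability then depends on proteins such as Lrpprc and Slirp. The proteins are core subunits of the respiratory chain and of the ATP synthase, so that the set reads out one side of the oxidative capacity of the tissue, the other side being nuclear. Of the 13 protein genes, 7 encode subunits of complex I, 1 of complex III, 3 of complex IV and 2 of complex V. The plus strand of the deposited coordinates carries 28 of the 37 genes, and the minus strand carries mt-Nd6 and 8 tRNAs.

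A stretch of chromosome 1 is nearly identical to part of the mitochondrial genome, and most protein genes inside that part had almost no counts. Annotation of the build of the files (GRCm38, GENCODE) places 7 unprocessed pseudogenes at chr1:24611535-24616197 on the minus strand, and their order and spacing follow MT:6381-11042, with a shift of 1 base between the copies of mt-Nd3 and mt-Nd4l. Inside that mitochondrial segment of 4662 bases lie 11 members, namely the protein genes mt-Co2, mt-Atp8, mt-Atp6, mt-Co3, mt-Nd3 and mt-Nd4l and 5 tRNAs, and mt-Co1 and mt-Nd4 cross its ends. The first 60 bases of mt-Co2 (cytochrome oxidase subunit 2, MT:7013-7072, exonic) and of its copy Gm28661 (chr1:24615506-24615565, minus strand) show the identity, here read from GENCODE transcripts.
mt-Co2: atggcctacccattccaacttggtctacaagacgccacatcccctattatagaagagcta
Gm28661: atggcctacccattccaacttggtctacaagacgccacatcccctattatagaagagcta
mt-Nd3, a small complex I subunit (MT:9459-9501), and its copy Gm28438 (chr1:24613077-24613119, minus strand) differed by 1 base over 345 aligned bases, T3C, in which the gene's base stands first and positions count from the first base of the gene. The capitals mark that base.
mt-Nd3: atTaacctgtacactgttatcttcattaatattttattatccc
Gm28438: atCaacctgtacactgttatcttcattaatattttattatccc
mt-Co1, the catalytic subunit of cytochrome oxidase, matched its copy Gm29216 from base 1054 onward except at 6 bases near the border of the segment, T1056A, C1057T, A1059G, A1060G, C1062A and A1066T. Bases 1054 to 1113 of the gene (MT:6381-6440) and the first 60 of the copy (chr1:24616138-24616197, minus strand) are shown with these in capitals.
mt-Co1: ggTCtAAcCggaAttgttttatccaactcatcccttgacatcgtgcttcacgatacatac
Gm29216: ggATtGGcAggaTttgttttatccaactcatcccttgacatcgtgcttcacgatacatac
No base differed between mt-Co2, mt-Atp6, mt-Co3, mt-Nd4l or mt-Nd4 and their annotated copies.

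Reads were 51 bases long from each end. Of all windows of 51 bases in a gene, the share that also stood in a copy was 99.5% in mt-Co2, 99.5% in mt-Atp6, 99.9% in mt-Co3, 98.0% in mt-Nd3, 98.8% in mt-Nd4l, 62.2% in mt-Nd4 and 28.7% in mt-Co1. It was 0 in both rRNAs and in mt-Nd1, mt-Nd2, mt-Nd5, mt-Nd6 and mt-Cytb. No copy of mt-Atp8 is annotated, and the 43 bases it shares with the reading frame of mt-Atp6 (capitals, MT:7897-7999) lie in the same segment.
mt-Atp8 to mt-Atp6: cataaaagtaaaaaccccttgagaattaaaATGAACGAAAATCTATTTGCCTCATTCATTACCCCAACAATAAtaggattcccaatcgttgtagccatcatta
How reads with several equal positions were treated is not given in the sources used here. In the deposited counts the 6 protein genes inside the segment had 690 counts over all 30 libraries, of which 604 were on mt-Nd3, and the 7 pseudogenes had 1309. mt-Nd1, a complex I subunit whose gene is of the same order of length as mt-Co3, had 985445 counts against 42 for mt-Co3. The near absence of counts from mt-Co2, mt-Atp8, mt-Atp6, mt-Co3 and mt-Nd4l was therefore not read as their level. In mt-Nd3, 292 of 298 windows stood in the copy, so that its few counts, too, are no measure of its level and are only set side by side between libraries below.

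The deposited TPM values (each library scaled to the same total after division by length) were made by another program, and there the same genes were high. mt-Co2 was listed at 3768 ± 820 TPM (SD, n = 30) and Gm28661 at almost the same value, with a ratio of gene to copy between 0.996 and 0.998 in every library. The ratio was 0.9987 to 1.002 for mt-Co3 and 0.998 to 1.01 for mt-Nd3. mt-Atp6, a subunit of the ATP synthase, was within 10% of its copy Gm10925 in 17 libraries, but in the other 13 it was listed at 397 to 1122 TPM beside a copy at 2091 to 5877. mt-Nd4l, a complex I subunit, was within 10% of Gm10222 in 25 libraries and at 0.251 to 0.398 TPM in 5 libraries, 2 of HFD M and 3 of HFD+E2 M, beside a copy at 302 to 828. A difference between groups in the listed mt-Nd4l or mt-Atp6 TPM cannot be told apart from a difference in how signal was assigned to the gene. The sum of gene and copy, scaled to the length of the gene, is used for levels below. For mt-Nd4l and mt-Atp6 it stays low where the gene was listed low, since the copy was not raised there. In HFD M, mt-Nd4l was at 0.276 TPM beside a copy at 618 in replicate 3, and at 621 beside 625 in replicate 1. mt-Atp6 was at 975 TPM beside a copy at 5368 in replicate 3, and at 5719 beside 5911 in replicate 4.

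**Figure D1:**
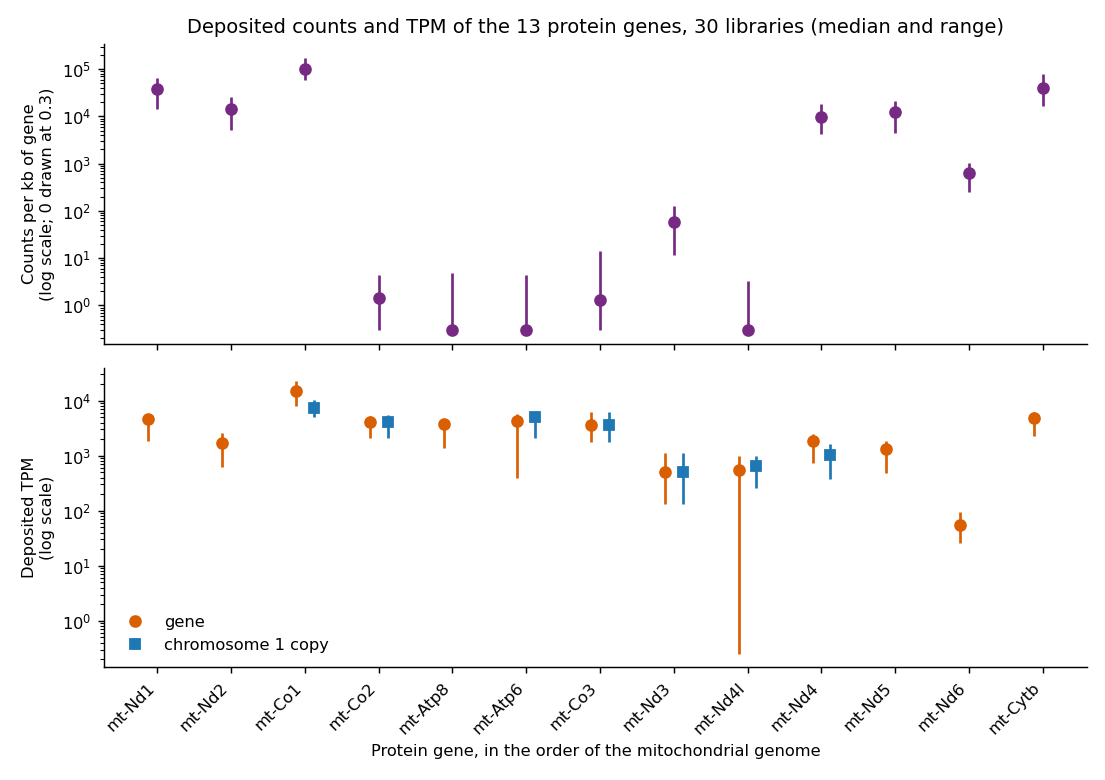
Deposited counts per kb of gene (upper panel) and deposited TPM (lower panel), both on log axes, for the 13 protein genes in genome order, with points at the median and lines over the range of 30 libraries. The 5 genes with a median of at most 1 count, mt-Co2, mt-Atp8, mt-Atp6, mt-Co3 and mt-Nd4l, have mean TPM values between 511 and 3825, and the chromosome 1 copies (blue squares) stand at the level of mt-Co2, mt-Co3 and mt-Nd3 and below mt-Co1 and mt-Nd4, whose median ratios to the copy are 2.08 and 1.71.

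Members took about 1 count in 3. Library totals ran from 8667177 to 17243712 counts (median 11530915), and the 37 genes received 33.2% ± 3.01 of them (SD, n = 30), from 26.1% to 38.0%. At this depth the 95% Wilson interval of a single library was narrow, 29.67% to 29.73% in CD F replicate 1 with 2741144 of 9229178 counts, so that almost all of the spread lay between libraries. These intervals cover counting error only. The 2 rRNAs made up 92.7% ± 1.56 of the members' counts. mt-Rnr2, the 16S rRNA of the large mitochondrial ribosomal subunit (MT:1094-2675), was the most counted gene of all and took 21.5% to 31.0% of a library. mt-Rnr1, the 12S rRNA of the small subunit (MT:70-1024), came next with 3.06% to 5.51%, followed by mt-Co1 with 1.38% of all counts. How far the depletion kit removed mitochondrial rRNA was not tested, so that rRNA and mRNA levels are not compared as expression. Rn18s-rs5, a nuclear 18S rRNA gene, took from 0.00108% to 5.69% of the counts of a library (median 0.411%), a far wider spread than that of mt-Rnr2.

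The protein genes received 2.44% ± 0.619 of all counts and the tRNAs 33 to 173 counts per library. mt-Tl1, the leucine tRNA that follows mt-Rnr2, was the most counted tRNA with 5 to 89 counts per library. mt-Tm, mt-Tt, mt-Tw and mt-Tp, for methionine, threonine, tryptophan and proline, followed with means of 10.4, 8.47, 8.37 and 7.77 counts. mt-Ts1, mt-Td, mt-Tk, mt-Th and mt-Ts2 had no count in any library, where 3 counts over the total of the 30 libraries correspond to 0.00863 CPM. The first 3 of them lie in the segment with the chromosome 1 copy. The tRNA genes are 59 to 75 bases long. In all, 25 of the 37 members averaged under 10 counts per library.

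**Figure D2:**
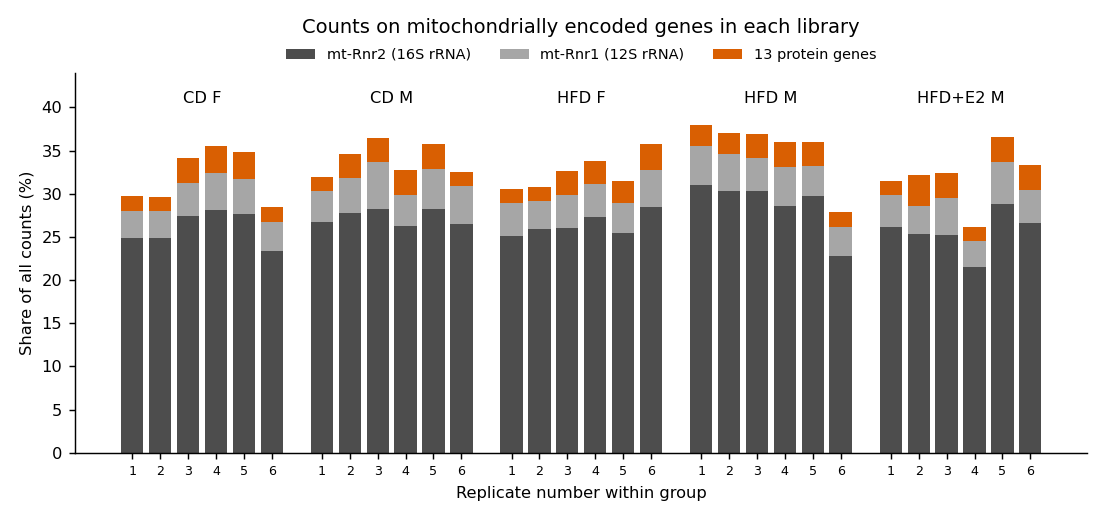
Share of all counts (%) on mt-Rnr2, mt-Rnr1 and the 13 protein genes in each of the 30 libraries, stacked, by group and replicate number. The stacks reach from 26.1% to 38.0%, mt-Rnr2 forms most of each, and HFD M replicate 6 stands at 27.8% while the other HFD M libraries are at 35.98% or more.

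The balance between protein genes was uneven. With the copies added, mt-Co1 was the highest at 17062 ± 3597 TPM (SD, n = 30) and stood above the next gene in 30 of 30 libraries. mt-Co3, mt-Co2 and mt-Atp6 followed at 7644 ± 1872, 7533 ± 1640 and 7523 ± 3292 TPM and could not be separated, since mt-Co3 exceeded mt-Co2 in 11 libraries and mt-Co2 exceeded mt-Atp6 in 13. By the median mt-Atp6, at 8828 TPM, came before mt-Co2 (8121) and mt-Co3 (7356), so that the order of these 3 depends on the summary used. It also depends on the 13 libraries in which mt-Atp6 was listed far below its copy, which lower its sum. mt-Cytb, the only complex III subunit encoded here, was at 4323 ± 1292 TPM and mt-Nd1 at 3940 ± 1333, in that order in 26 of 30 libraries. mt-Atp8 was listed at 3199 ± 1209 TPM with no annotated copy to add, so that any signal given to chromosome 1 is missing from it. The remaining complex I subunits were lower still: mt-Nd4 at 2272 ± 819 TPM, mt-Nd2 at 1530 ± 615, mt-Nd5 at 1245 ± 442, mt-Nd4l at 1124 ± 490 and mt-Nd3 at 1112 ± 418. Among the last 3 of these the order was not fixed, with mt-Nd5 above mt-Nd4l in 17 libraries and mt-Nd4l above mt-Nd3 in 15. The sum for mt-Nd4l is likewise lowered in the 5 libraries in which the gene was listed at 0.251 to 0.398 TPM.

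mt-Nd6 stood far below all the others at 58.4 ± 16.7 TPM. It is the only protein gene on the minus strand, and its neighbour mt-Nd5, with which it shares 14 bases, was 9.39 to 37.02 times higher in TPM (median 21.3). The library kit keeps strand, but the strand setting of the counting is not given in the sources used here, so that reads of mt-Nd6 and reads of plus-strand RNA over it cannot be told apart. Of the protein genes, 7 had enough counts for a balance between them, and 2 of these, mt-Co1 and mt-Nd4, share part of their sequence with chromosome 1, so that their shares may be understated. mt-Co1 held 57.5% ± 6.14 of the joint counts of the 7, mt-Cytb 15.1% ± 1.87, mt-Nd1 11.3% ± 1.80, mt-Nd5 7.03% ± 1.43, mt-Nd2 4.72% ± 1.18, mt-Nd4 4.26% ± 0.513 and mt-Nd6 0.123% ± 0.0379. The highest share was 3.67 times the lowest for mt-Nd6 and 1.44 times for mt-Co1. In CPM the widest range was that of mt-Nd2, at 4.77 times, against 3.47 times for mt-Nd6 and 2.48 times for mt-Co1.

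Libraries fell apart in their counts on the protein genes before any comparison was made. The share of the protein genes was 1.52% to 1.71% in 10 libraries and 2.33% to 3.56% in 20, with none in between. The 10 libraries came from all groups, 3 of CD F, 2 of CD M, 2 of HFD F, 1 of HFD M and 2 of HFD+E2 M. They carried sample numbers 102 to 107, 123 and 128 to 130 in the labels, which run from 101 to 130, so that 9 of them stood near the ends of the series. What the numbers stand for is not stated. By member, mt-Cytb was at 1857 to 2688 CPM in those 10 libraries and 3036 to 6721 in the 20, and mt-Nd1, mt-Nd2, mt-Co1 and mt-Nd4 likewise did not overlap. mt-Nd5, mt-Nd6, both rRNAs and mt-Tl1 did overlap, mt-Rnr2 standing at 21.5% to 26.7% in the 10 and 25.3% to 31.0% in the 20. On the TPM scale with copies added, mt-Atp6 was at 2478 to 4305 in the 10 libraries and 5473 to 11603 in the 20. All 10 were among the 13 libraries in which mt-Atp6 was listed far below its copy, so that this gap depends on that listing. The copy Gm10925 alone stood at 2091 to 3580 TPM in the 10 and at 3338 to 5911 in the 20, and overlapped. With copies added, mt-Co3 (3519 to 10085 and 4667 to 12599) and mt-Nd3 (335 to 1612 and 266 to 2215) overlapped widely. These are ranges of libraries sorted by the measure itself, and no test was made.

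Set against the number alone, in 3 runs of 10 numbers chosen after the data were seen, libraries 101 to 110 had a median protein gene share of 1.69%, libraries 111 to 120 one of 2.86% and libraries 121 to 130 one of 2.80%. Not every mRNA followed this order, since in TPM with the copies added mt-Nd3 had medians of 1459, 946 and 986 and mt-Co3 of 8860, 6997 and 6915 in the same runs. Epithelial markers had medians of 6434, 6126 and 6404 CPM, smooth muscle markers 7490, 9925 and 8647 CPM, and Rn18s-rs5 0.00823%, 0.789% and 1.51%. Smooth muscle markers and the protein gene share were both lowest in the first run, but single libraries went either way. HFD+E2 M replicate 4 had the highest smooth muscle sum, 15460 CPM, and the lowest protein gene share, 1.52%. CD F replicate 1 had the lowest sum, 6190 CPM, and a share of 1.66%. The part of the markers in the mRNA level was not tested. The groups were spread unequally over the runs. CD F had 3, 2 and 1 libraries against 1, 2 and 3 of CD M. HFD M had 3, 1 and 2 against 1, 2 and 3 of HFD+E2 M. Values within runs are therefore given below for the count shares, some ratios, and mt-Nd3 and mt-Nd6 in some comparisons, with member medians near the end.

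**Figure D3:**
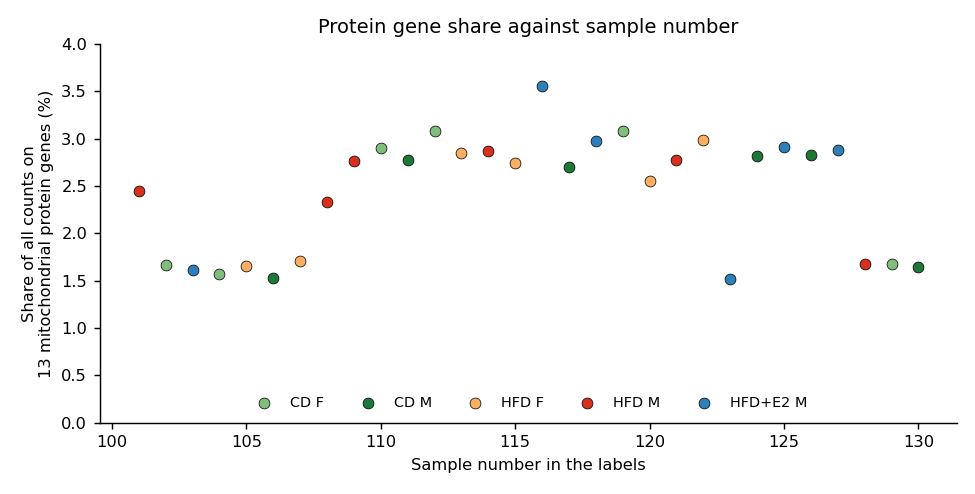
Share of all counts (%) on the 13 protein genes against the sample number in the labels, 1 point per library, coloured by group. Points lie between 1.52% and 1.71% or between 2.33% and 3.56%, and every group has points in both bands.

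With all 30 libraries, group differences in the total share of counts were smaller than the pooled SD of the libraries in all 5 comparisons. This rested in part on HFD M replicate 6, as the next paragraph shows. Differences in the TPM share exceeded the pooled SD in 3. The share is a sum over the members and was described without a test. It was 28.4%, 31.9% and 35.5% (lowest, median and highest of 6) in CD F, and 31.9%, 33.6% and 36.4% in CD M. In HFD F it was 30.6%, 32.1% and 35.8%, in HFD M 27.8%, 36.5% and 38.0%, and in HFD+E2 M 26.1%, 32.3% and 36.6%. All groups overlapped, but CD F and HFD F each overlapped HFD M only through HFD M replicate 6. The other HFD M libraries were at 35.98% or more. HFD M had the highest mean, 35.3% ± 3.72 (SD, n = 6), and HFD+E2 M the lowest, 32.0% ± 3.41, a difference of -3.29 percentage points for E2 against vehicle where the pooled SD was 3.57. HFD F lay below HFD M by -2.76 points (pooled SD 2.99), and CD F below CD M by -1.94 points (pooled SD 2.57). HFD exceeded CD by 0.491 points in females, a value that ranged from -0.228 to 1.19 when 1 library was left out, and by 1.31 points in males. On the TPM scale, without the copies, CD F stood at 25.95% to 33.52% and CD M at 31.58% to 38.78%, a difference of -4.83 points (pooled SD 2.80). The differences there were -5.79 points for HFD F against M (pooled SD 5.07) and -8.01 points for E2 (pooled SD 6.60), and the groups overlapped in all 5 comparisons.

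HFD M replicate 6 weighed on 3 of the differences in counts. It is also the HFD M library of the lower band in protein gene counts, at 1.68%. Without it the difference became -4.77 points for E2 against vehicle, -4.25 for HFD F against HFD M and 2.80 for HFD against CD in males. The E2 and HFD F values exceed the pooled SDs of 3.57 and 2.99, which include that library, and the HFD against CD value stays below 2.95. Over all single libraries left out, the difference ran from -4.77 to -2.10 under E2 and from -4.25 to -2.22 for HFD F against M. It ran from 0.775 to 2.80 for HFD against CD males and from -2.64 to -1.22 for CD F against M. Within the runs of sample numbers, weighted by their libraries, the 5 differences were -2.58 (E2), -3.00 (HFD F against M), -1.92 (CD F against M), 0.0441 (HFD against CD, females) and 0.880 (males), and single runs differed in sign in 4 of the 5 comparisons. The protein genes alone had means of 2.33% ± 0.763 in CD F, 2.38% ± 0.619 in CD M, 2.42% ± 0.587 in HFD F, 2.48% ± 0.444 in HFD M and 2.58% ± 0.820 in HFD+E2 M, with pooled differences of at most 0.1 points. Within the runs they were 0.0644 (CD F against M), -0.233 (HFD F against M), -0.0748 (HFD against CD, females), 0.223 (males) and -0.0589 (E2), and the sign of each of the 5 pooled differences turned when 1 library or another was left out, within -0.225 to 0.311.

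Between females and males on CD, no member passed an adjusted p of 0.05 in edgeR's quasi-likelihood test (Benjamini-Hochberg over 14922 genes), although 2.92% of all genes tested did. Of 37 members 13 were abundant enough to test, and none had an unadjusted p under 0.05, which 2207 of 14922 genes had in edgeR. DESeq2 called none and likewise had none under that value. By the study's own threshold, an unadjusted p under 0.05 with a log2 fold change beyond 0.4 in size, no member was called against 9.15% of all genes. The lowest member p was that of mt-Rnr1, with a log2 fold change of -0.23 ± 0.16 (SE, adjusted p = 0.552 in edgeR). mt-Co1, mt-Cytb, mt-Nd4 and mt-Rnr2 had log2 fold changes of -0.03, 0.04, 0.01 and -0.07. Standard errors reached 0.45, for mt-Nd2, and the 2 levels of mRNA described above occurred in both groups. Smooth muscle markers differed in the same libraries: the 8 genes summed to 7055 ± 948 CPM in CD F and 10940 ± 2246 in CD M (SD, n = 6), and 5 of them, Des, Synm, Tagln, Acta2 and Actg2, were lower in females by the adjusted threshold. With the smooth muscle score as a covariate, a score that itself follows sex, 8 of 13 tested members passed the study's threshold, all upward, as did 12.8% of all genes, with a median log2 fold change of 1.20 over the tested members and 0.01 over all genes, and none passed the adjusted one (lowest adjusted p = 0.0891 in edgeR).

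Between females and males on HFD, 0 of 11 tested members passed the adjusted threshold, as did 0.0988% of all genes, and DESeq2 called 0. At the study's threshold 1 member was called, mt-Nd3, against 3.09% of all genes. With the runs of sample numbers or the replicate number as a block it was 0, against 3.37% and 3.56% of all genes. mt-Nd3 read 1.60, 1.77 and 2.11 CPM (lowest, median and highest) in HFD F and 1.85, 2.37 and 3.43 CPM in HFD M. The groups overlapped, the highest HFD F library lying above the lowest 2 of HFD M. The log2 fold change was -0.52 ± 0.22 (SE, adjusted p = 0.872 in edgeR). In TPM with the copy added the log2 difference was -0.28 ± 0.22 (adjusted p = 0.943 in limma), and mt-Nd3 rested on 4 to 45 counts per library in the counts. mt-Nd6 differed the other way, with a log2 fold change of 0.36 ± 0.18 (adjusted p = 0.872 in edgeR). Squamous epithelium markers summed to as much as 1449 CPM in HFD F and to at most 396 CPM in HFD M, and with their score as a covariate mt-Nd3 had -0.49 (log2 fold change, adjusted p = 0.991 in edgeR) and no longer passed the study's threshold.

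HFD against CD in females gave the narrowest range of member log2 fold changes of any comparison in the edgeR fits of counts. No member of 11 tested passed the adjusted threshold (0.0199% of all genes did), and none had an unadjusted p under 0.05 (856 of 15061 genes did in edgeR). DESeq2 called none, and none passed the study's threshold, which 3.67% of all genes did. Log2 fold changes ran from -0.23 ± 0.31 for mt-Nd6 to 0.13 ± 0.23 for mt-Nd3 (SE). mt-Rnr2 and mt-Rnr1 each changed by 0.01 on that scale, with standard errors of 0.14 and 0.15.

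In the edgeR fits of counts, HFD against CD in males gave the lowest unadjusted p of any member, that of mt-Nd6. It read 21.7, 32.0 and 43.0 CPM (lowest, median and highest) in CD M and 17.8, 22.2 and 24.6 CPM in HFD M. All 6 HFD M libraries lay below the median of CD M, and the groups overlapped only through the lowest CD M library, replicate 1, which lay below 3 of the HFD M ones. The log2 fold change was -0.50 ± 0.15 (SE, adjusted p = 0.704 in edgeR). mt-Nd3 went the other way, from 1.24, 1.72 and 2.11 CPM in CD M to 1.85, 2.37 and 3.43 CPM in HFD M, a log2 fold change of 0.58 ± 0.23 (adjusted p = 0.807 in edgeR). In TPM with the copy added the difference was 0.50 ± 0.22 on the log2(TPM + 1) scale (adjusted p = 0.965 in limma). These 2 of 12 tested members passed the study's threshold, as did 2.9% of all genes. At an unadjusted p under 0.05 there were 2 in edgeR as in DESeq2, beside 904 of 14991 genes in edgeR. None passed the adjusted threshold in either tool, and of all genes 0% did so in edgeR. mt-Co1 had 0.22 ± 0.17 and mt-Rnr2 0.12 ± 0.14 (log2 fold change, SE). With the runs of sample numbers as a block, log2 fold changes were -0.40 for mt-Nd6 and 0.61 for mt-Nd3. With the smooth muscle score as a covariate they were -0.46 and 0.59, 3 members passed the study's threshold, as did 2.12% of all genes, and the median over the tested members turned from -0.03 to 0.36.

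E2 against vehicle in males on HFD gave the largest fold change of a member in the edgeR fits of counts, again that of mt-Nd3. HFD M libraries read 1.85, 2.37 and 3.43 CPM (lowest, median and highest) and HFD+E2 M libraries 0.392, 0.898 and 2.54 CPM. Replicates 2, 3 and 4 of HFD+E2 M, at 0.392, 0.580 and 0.499 CPM, were the lowest of all 30 libraries, replicate 1 lay below HFD M as well at 1.22 CPM, and replicates 5 and 6 lay within the range of HFD M. The log2 fold change was -1.15 ± 0.40 (SE, adjusted p = 0.455 in edgeR). The counts behind it were 4, 10 and 6 in those replicates and 16 to 45 in HFD M. Deposited TPM of mt-Nd3, which nearly equalled that of its copy in every library, ran in HFD M from 520 through a median of 640 to 1113. In HFD+E2 M it ran from 133 through 346 to 718. Single libraries changed places on this scale, with replicate 1 of HFD+E2 M at 718 TPM inside the range of HFD M and replicates 5 and 6 at 478 and 469 TPM below it. With the copy added the log2 difference was -1.21 ± 0.37 (adjusted p = 0.424 in limma on log2(TPM + 1)), of the same sign and similar size. Among other members whose reads stand in the copy, mt-Co3 had -0.66 ± 0.24 (adjusted p = 0.424 in limma) and mt-Co2 -0.41 ± 0.22 (adjusted p = 0.455) on that TPM scale. There mt-Co1 had -0.27, mt-Nd4l -0.21, mt-Atp6 -0.16 and mt-Nd4 -0.06. The values of mt-Nd4l and mt-Atp6 cannot be told apart from differences in the listing of the gene. mt-Nd4l was listed far below its copy in 2 HFD M and 3 HFD+E2 M libraries, and mt-Atp6 in 4 and 2. In that limma fit 10 of 31 tested members passed the study's threshold, all downward, against 8.21% of all genes, and none passed the adjusted one. Members entered this fit at a mean TPM of at least 1, but other genes had to pass the filter on counts. The 8.21% is therefore not a like background for them. Beside mt-Nd3 and mt-Co3 these were 8 tRNAs, such as mt-Tg at -1.27, mt-Tq at -1.08, mt-Tl2 at -1.01 and mt-Tw at -0.84, but of these 8 mt-Td and mt-Tk had no count in any library, and mt-Tg, mt-Tl2 and mt-Tf had 5, 6 and 16 counts in all 30 together. The median log2 difference was -0.35 over the tested members and -0.12 over all genes on this scale.

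mt-Nd6 was higher with E2, from 17.8, 22.2 and 24.6 CPM in HFD M to 18.5, 30.5 and 34.6 CPM in HFD+E2 M. All but replicate 1 of HFD+E2 M lay above every HFD M library. The log2 fold change was 0.34 ± 0.15 (SE, adjusted p = 0.478 in edgeR). With the runs of sample numbers as a block it was 0.24, and that of mt-Nd3 was -1.24. At the adjusted threshold 0 of 11 tested members were called by edgeR and by DESeq2, against 0.00666% of all genes in edgeR. At an unadjusted p under 0.05 there were 2 in each tool, beside 1535 of 15010 genes in edgeR. At the study's threshold there was 1, mt-Nd3, against 5.87% of all genes. The comparisons of HFD with CD in males, of sex on HFD and of E2 share the HFD M libraries, so that their opposite signs for mt-Nd3 and mt-Nd6 are not independent of each other.

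**Figure D4:**
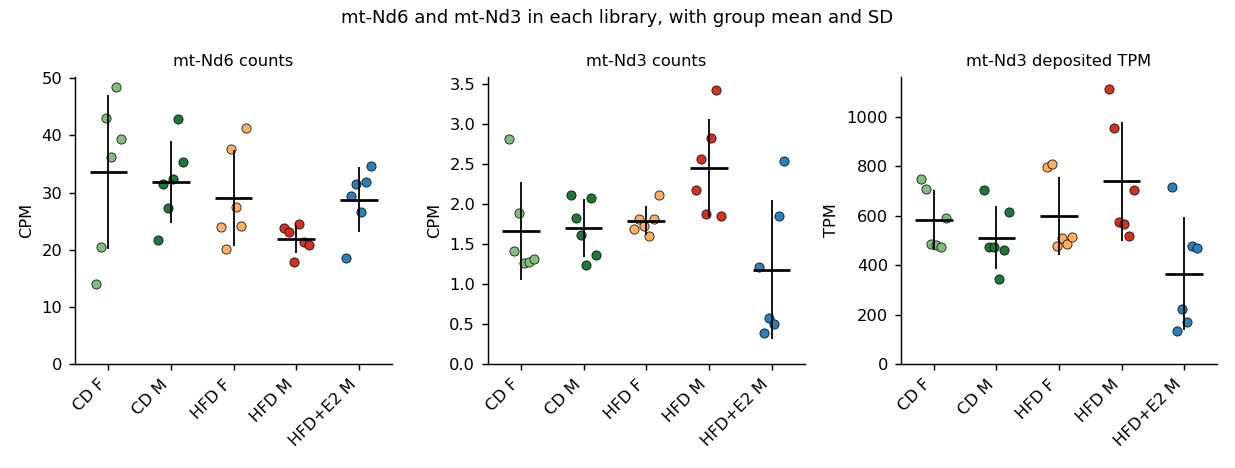
mt-Nd6 in CPM, mt-Nd3 in CPM and mt-Nd3 in deposited TPM (gene alone) for each library by group, with the group mean (horizontal line) and SD (vertical line), n = 6. HFD M libraries lie at 17.8 to 24.6 CPM for mt-Nd6, and HFD+E2 M replicates 2, 3 and 4 lie at 0.392 to 0.580 CPM for mt-Nd3.

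The sex difference under HFD was also compared with that under CD in 1 model. No member of 14 tested passed the adjusted threshold for this interaction (0% of all genes did). None had an unadjusted p under 0.05 (1066 of 15800 genes did in edgeR), and DESeq2 called none. mt-Tw, the tryptophan tRNA, had the lowest unadjusted p, with a log2 difference of -1.004 ± 0.52 (SE, adjusted p = 0.739 in edgeR), and rested on 0 to 21 counts per library.

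**Figure D5:**
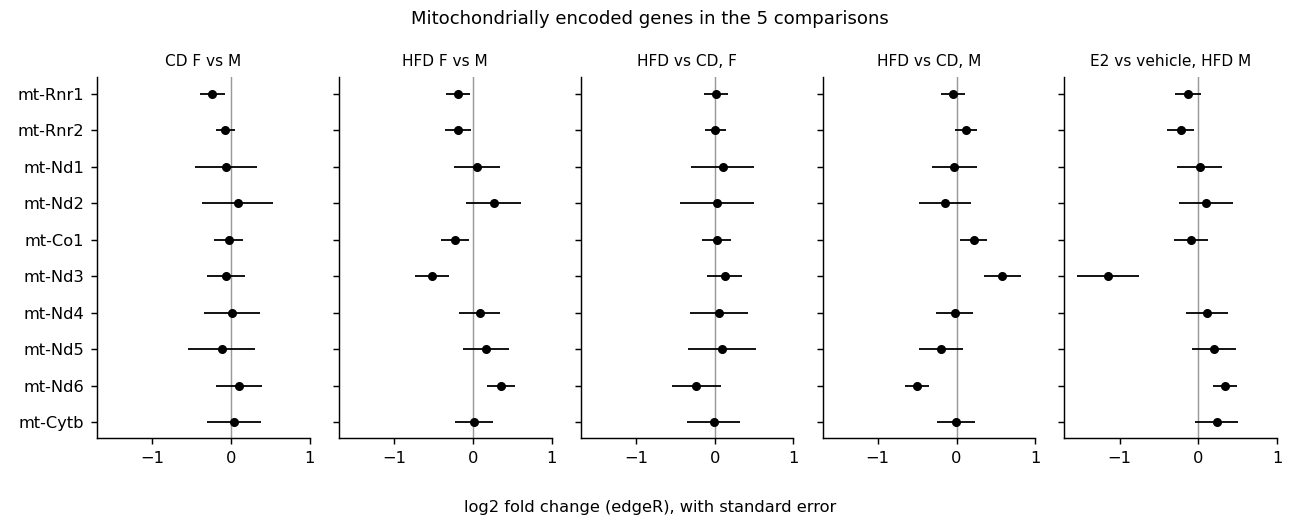
Log2 fold changes from edgeR with standard errors for 2 rRNAs and the 8 protein genes tested in each of the 5 comparisons. Most points lie within about 1 standard error of 0, and mt-Nd3 stands apart at -1.15 under E2 and mt-Nd6 at -0.50 for HFD against CD in males.

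Ratios of 2 members compare them within a library and do not depend on its depth. mt-Rnr2 exceeded mt-Rnr1 in counts by 5.12 to 8.55 times over all 30 libraries (median 6.93), with means of 7.18 ± 0.594 in CD F, 6.48 ± 0.866 in CD M, 7.13 ± 0.636 in HFD F, 7.14 ± 0.870 in HFD M and 6.76 ± 0.693 in HFD+E2 M (SD, n = 6). mt-Nd6 was counted 0.0105 to 0.0369 times as often as mt-Nd5, and mt-Nd5 0.475 to 0.748 times as often as mt-Nd1. Over 15 exact two-sided permutation tests, 3 ratios in 5 comparisons, no adjusted p was below 0.576, where the smallest p that 6 libraries against 6 allow is 0.00216. The lowest p was 0.0909, for mt-Nd5/mt-Nd1 in HFD against CD males (log2 difference -0.17, exact permutation test), where none of the 6 HFD M libraries exceeded the median of CD M. E2 against vehicle gave 0.19 for the same ratio (p = 0.0974, exact permutation test), with 5 of 6 HFD+E2 M libraries above the median of HFD M. Within the runs of sample numbers these 2 log2 differences were -0.13 and 0.17.

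Few nuclear genes that serve the mitochondrial genome were called. In 5 lists, for replication (6 genes), transcription (6), RNA processing (13), RNA stability (13) and regulators of mitochondrial biogenesis (7), 0 of 45 genes passed the adjusted threshold in any of the 5 comparisons in edgeR, with 44 or 45 tested. In CD females against males edgeR called 1, Rexo2, an exonuclease of short RNA, with the replicate block (adjusted p = 0.00184, 6.31% of all genes called) or without CD M replicate 1 (adjusted p = 0.0481, 4.6% of all genes). DESeq2 called 2 there, and 5.19% of all genes, Rexo2 (log2 fold change -0.72, adjusted p = 0.0417), and Trmt10c, a subunit of the enzyme that cuts tRNA 5′ ends (0.36, adjusted p = 0.0183). List medians of the log2 fold change over the 45 genes were 0.08, 0.03, -0.06, -0.02 and -0.02 in the order in which the comparisons stand above, beside 0.01, 0.01, 0.00, -0.01 and 0.00 for all genes tested. At the study's threshold 1, 1, 0, 2 and 2 of the 45 were called, where 9.15%, 3.09%, 3.67%, 2.9% and 5.87% of all genes were.

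Polrmt, the mitochondrial RNA polymerase, was at 5.97 ± 0.877 TPM in CD F, 7.35 ± 1.53 in CD M, 8.73 ± 2.95 in HFD F, 7.18 ± 2.39 in HFD M and 6.92 ± 1.76 in HFD+E2 M (SD, n = 6). In counts its log2 fold changes were 0.11 for CD F against M and -0.04 for HFD against CD in females, opposite in sign to the TPM means. Tfam, which packages the genome and starts transcription, was at 9.49 ± 2.41 TPM in HFD M and 7.17 ± 2.15 in HFD+E2 M, a log2 fold change of -0.37 ± 0.16 in counts (SE, adjusted p = 0.476 in edgeR). Tfb2m, its partner at the promoter, had 0.07 ± 0.15 in that comparison. Lrpprc, the main mRNA-stabilising protein, ranged from 19.2 ± 3.61 TPM in HFD+E2 M to 22.6 ± 5.92 in HFD F, and its partner Slirp had a log2 fold change of -0.49 ± 0.19 with E2 (adjusted p = 0.461 in edgeR). Ppargc1a, a coactivator of mitochondrial biogenesis, ranged from 23.7 ± 4.37 TPM in CD F to 29.7 ± 6.59 in HFD M, with log2 fold changes between -0.14 and 0.05 in the 5 comparisons. Its relative Pprc1, in counts, was among the genes at the study's threshold in 2 of them, with 0.42 ± 0.18 in females against males on HFD (adjusted p = 0.872 in edgeR) and -0.53 ± 0.20 in HFD against CD males (adjusted p = 0.802). Pus1, a pseudouridine synthase that modifies tRNA, was the other gene past that threshold in HFD against CD males, with -0.45 ± 0.14 (adjusted p = 0.704 in edgeR) and 10.1 ± 1.75 TPM in CD M against 7.24 ± 1.37 in HFD M. In TPM, Pprc1 stood at 5.59 ± 1.65 in HFD F, 5.60 ± 2.19 in HFD M and 5.59 ± 1.49 in CD M, with no such difference. Of the chromosome 1 copies, Gm29216, which matches the end of mt-Co1, was tested in all 5 comparisons, and its log2 fold changes ran from -0.65 ± 0.33 to 0.30 ± 0.31 with no adjusted p below 0.87.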

How the data were processed

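RNA of 30 colon samples was prepared by the authors with a stranded, Ribo-Zero depleted total RNA kit, sequenced as paired reads of 51 bases and aligned to mm10 (GRCm38) with STAR. Whole-number counts per gene (featureCounts) and TPM values (StringTie) are those the authors deposited. The treatment of reads with several positions and the strand setting are not given in the sources used here. In 30 of 30 libraries the counts correlated best with the TPM of the same sample (9481 genes, log scale, gene means removed). Library totals were 8667177 to 17243712 counts.

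Groups followed the sample titles. Counts were tested with edgeR 4.0.16 (filterByExpr, TMM, robust quasi-likelihood, R 4.3.3) on the 12 libraries of each comparison and on 24 for sex by diet, with p-values adjusted over all genes tested. DESeq2 1.42.0 and limma 3.58.1 on log2(TPM + 1), the latter added after the data were seen, were alternatives, as were other scalings, filters, covariates and libraries left out. In limma the members were kept by mean TPM and all other genes by filterByExpr on counts. Ratios of 2 members were tested by exact two-sided permutation (Python 3.11.15). Shares of all counts were described only. The fits were also run on simulated data, no result of which is given here. Windows of 51 bases were compared between GENCODE transcripts. Summed marker CPM use all counts as the total. All protein and rRNA members, the 5 most counted tRNAs, any tRNA or listed nuclear gene past the adjusted threshold, the chromosome 1 copies, Polrmt, Tfam, Tfb2m, Lrpprc and Ppargc1a are named by a fixed rule, and other nuclear genes were named after their values were seen. The members and lists were chosen with earlier results of these data known. P-values set a difference between groups against the spread between their libraries, which holds counting error as well as differences between animals.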

Additional observations from a re-analysis of the deposited data

Results flagged for a closer look

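In groups of 6 libraries, a library was picked out where its gap to the nearest other was too large a part of the range of the group by Dixon's 95% value. This was tried for 22 measures in 5 groups, 110 in all, of which chance alone would mark about 5%, and 3 were marked. All 3 belonged to HFD M replicate 6, sample number 128. The share of all counts on the 37 genes was 27.8% there and at least 35.98% in the other HFD M libraries. mt-Rnr2 took 22.7% of counts, against 28.5% or more in the others. mt-Co1 stood at 10290 CPM, against 14980 CPM or more. This is the 1 HFD M library of the lower band in protein gene counts, a band that mt-Co1 counts helped to set. Other values stood apart there as well. Rn18s-rs5 took 4.13% of counts against at most 1.17% in the other HFD M libraries, erythroid markers summed to 24.2 CPM against at most 6.48, and B cell markers to 111 CPM against at most 53.5. Their part in the share of these genes was not tested.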

How the results depend on the processing

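Counts of members past the adjusted threshold stayed at 0 in every comparison under every setting of edgeR and DESeq2 tried. The exception was limma on log2(TPM + 1), chosen after seeing the data, which called 1 member in CD F against M, mt-Tf (log2 difference -0.73, adjusted p = 0.0319, 2.04% of all genes called), a tRNA with 16 counts in all 30 libraries. Members past the study's threshold, 0 of 13 in CD F against M, were 2 of 31 without a filter on low counts (8.13% of all genes). With a smooth muscle covariate they were 8 of 13 (12.8%), where the median log2 fold change of the members became 1.20. In HFD F against M, 1 of 11 became 2 of 11 with total counts in place of TMM (3.41% of all genes). It became 3 of 30 without the filter (4.15%) and 2 of 16 with all 30 libraries in 1 fit (4.2%). It fell to 0 of 11 with the replicate block (3.56%), the squamous covariate (3.48%) and runs of 10 sample numbers as a block (3.37%). In HFD against CD males, 2 of 12 became 0 of 16 with all 30 libraries (3.24%) and 3 of 12 with the smooth muscle covariate (2.12%). Under E2, 1 of 11 became 4 of 29 without the filter (6.55%) and 0 of 9 with at least 10 counts in every library (5.96%). limma on log2(TPM + 1) put 4 (CD F against M), 5 (HFD F against M), 1 (HFD against CD females), 2 (males) and 10 (E2) members past that threshold, of 31 or 32 tested, beside 8.11%, 2.35%, 3.38%, 2.5% and 8.21% of all genes. The percentages of the limma fits are not a like background, since members entered by mean TPM and other genes by the filter on counts. Machinery genes called in CD F against M were 2 in DESeq2 and 1 with the replicate block (Rexo2, adjusted p = 0.00184 in edgeR). With runs of sample numbers as a block, the median log2 fold change of the tested members changed sign in every edgeR comparison. It moved from -0.06 to 0.06 (CD F against M), 0.06 to -0.18 (HFD F against M) and 0.03 to -0.11 (HFD against CD females). It moved from -0.03 to 0.17 (HFD against CD males), 0.10 to -0.11 (E2) and 0.06 to -0.38 (sex by diet). The cause of these changes was not tested.

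The difference in total share moved on the TPM scale to -4.83 points in CD F against M, -5.79 in HFD F against M and -8.01 under E2. The mt-Rnr2/mt-Rnr1 difference in HFD against CD females, -0.01 on the log2 scale, turned to 0.0102 within runs of sample numbers. Leaving out 1 library at a time gave 0 to 2 members past the study's threshold in HFD F against M (2.36% to 5.01% of all genes). It gave 1 to 2 in HFD against CD males (2.27% to 4.68%) and 1 to 2 under E2 (3.67% to 9.86%). Machinery genes past the adjusted threshold in CD F against M were 0 to 1 (1 without CD M replicate 1, where 4.6% of all genes were called). Log2 ratio differences crossed 0 in 3 of 15 cases, with ranges of -0.0416 to 0.0561 (mt-Rnr2/mt-Rnr1, HFD F against M), -0.0549 to 0.0181 (the same ratio, HFD against CD females) and -0.0166 to 0.0674 (mt-Nd5/mt-Nd1, HFD against CD females). mt-Nd3 under E2 ranged from -1.49 to -0.96, mt-Nd3 in HFD against CD males from 0.43 to 0.67, mt-Nd6 there from -0.60 to -0.38 and mt-Nd6 under E2 from 0.27 to 0.45.

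Replicate numbers are shared between groups, but the labels do not say what they mark. Deviations of same-numbered libraries from their group means correlated above 0.1 in 2 to 5 of 6 pairs per comparison, not in all 6, with r up to 0.577. Libraries of the first group correlated best with their own number in 4 of 6 cases in CD F against M and in HFD against CD males. Under E2 this held in 3, in HFD F against M in 1 and in HFD against CD females in 0. The labels give no source for a pairing, and the unblocked fit was kept. The replicate numbers rise with the sample numbers within each group. The replicate block changed the calls named above, and all genes called in CD F against M rose from 435 to 941, against 774 in DESeq2, 111 with the smooth muscle and 215 with the squamous covariate. In the other comparisons DESeq2 called 32, 60, 23 and 47 genes where edgeR called 15, 3, 0 and 1. Counting error was large for mt-Nd3, at 4 to 45 counts per library, and most tRNAs had too few counts to test.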
